A study of Mus musculus with 16 samples.

Results

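Astrocyte marker genes were followed in mouse brain: Sox9, Gfap, S100b, Aldh1l1, Aldoc, Slc1a3, Slc1a2, Glul, Aqp4 and Gja1, 10 of the 43472 gene symbols in the count tables. Rows were matched by symbol, and the genes were chosen with earlier results of these data known. The 16 libraries form 4 groups of 4: brains of Prepl knockout mice and of the wild types (WT) kept as their controls, and brains of PWS-IC deleted mice and of a separate set of WT controls. The product of Prepl is a serine hydrolase related to prolyl endopeptidase, missing in people with congenital myasthenic syndrome-22, and PWS-IC is the Prader-Willi imprinting centre, without which the paternal genes of that region are not active. The study asked what the brains of both models share. The sources used here do not state strain, age, the extent of each deletion or whether replicates are separate animals; the spread behind each p-value is that of these libraries and may be technical. By Xist and Y-linked genes, the 4 Prepl knockouts were male and the Prepl WT were 3 females and 1 male, while the PWS-IC deleted group and its WT had 2 of each sex.

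Astrocytes are the glial cells that wrap synapses and blood vessels. They clear glutamate from the synaptic cleft and return it to neurons as glutamine, move water and ions at vessel-facing endfeet, and form a network of cells coupled by gap junctions. Sox9 is a transcription factor of the astrocyte lineage that ependymal and neural stem cells also make. Gfap and S100b encode an intermediate filament and a calcium-binding protein that mark astrocytes in histology, and Aldh1l1 and Aldoc encode a folate enzyme and a glycolytic aldolase. Slc1a3 and Slc1a2 encode the glutamate transporters GLAST and GLT-1, and Glul encodes glutamine synthetase. Aqp4 is the water channel of the endfeet, and Gja1 encodes connexin 43, the main gap junction protein of astrocytes, which meningeal and vascular cells also make.

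The libraries held 3477624 to 5852716 reads in genes, with 19064 to 20046 genes detected. Prepl stood at 1.17 to 2.18 CPM, counts scaled to the reads in genes of each library, in the knockouts, against 33.6 to 36.5 CPM in their WT. Ndn, a paternal gene of the Prader-Willi region, stood at 2.17 to 6.56 CPM in PWS-IC deleted brains, against 542.7 to 566 CPM in their WT. Reads outside genes made up 16.1% to 19.2% in Prepl knockouts and 15.98% to 19.6% in Prepl WT, but 17.7% to 20.1% in PWS-IC deleted brains and 11.4% to 13.7% in PWS-IC WT, without overlap. Neuron markers summed to 6743 to 7663 CPM per library over all groups, and the oligodendrocyte markers Mog and Opalin stayed under 1 CPM in every library. In bulk tissue, fewer astrocytes and less RNA per astrocyte cannot be told apart.

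All 10 genes were detected in every library and passed the filter on low counts in each comparison. Each read comes from the 3′ end of a transcript, so CPM compares levels between genes without a length correction. The order of mean CPM was the same in all 4 groups: Slc1a3, Glul, Aldoc, Slc1a2, Sox9, Gja1, Aqp4, Aldh1l1, S100b and Gfap. Slc1a3 gave 30.1% to 31.9% of the reads of the 10 genes in the group means, and Glul 21.1% to 22.9%. Gfap stood last, at 5.47 to 17.9 CPM over all libraries and 0.483% to 0.885% of those reads in the group means. Neighbours in this order were not always apart. The library ranges of Slc1a2 and Sox9 overlapped in 3 groups, Prepl knockout, Prepl WT and PWS-IC WT, and those of Aldh1l1 and S100b in 3, all but PWS-IC WT. Aldoc and Slc1a2 overlapped in both Prepl groups, Slc1a3 and Glul in the knockouts, S100b and Gfap in the Prepl WT, and Aqp4 and Aldh1l1 in the PWS-IC deleted brains.

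**Figure D1:**
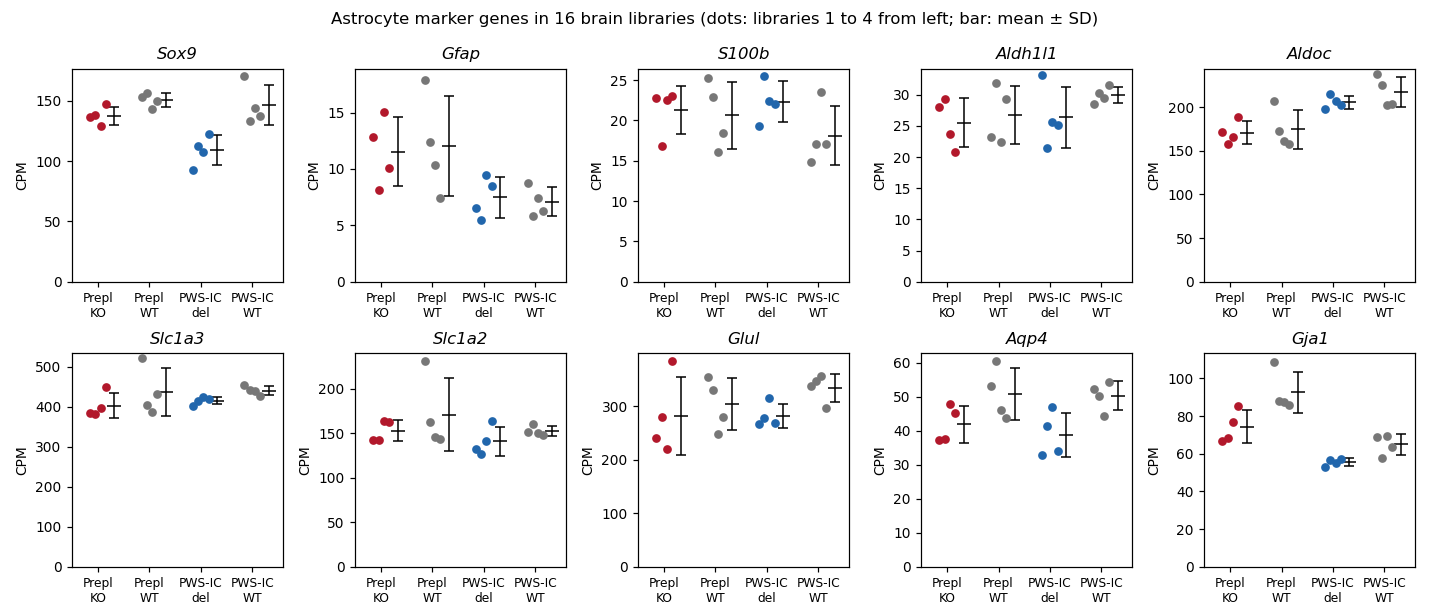
CPM of each astrocyte marker gene (vertical axes, from 0) in the 4 libraries of each group, Prepl knockout, Prepl WT, PWS-IC deleted and PWS-IC WT from left to right; dots are libraries and bars the mean ± SD. Sox9 in PWS-IC deleted brains, at 92.9 to 123 CPM, lies below every other group, and Gja1 is highest in Prepl WT, at 85.9 to 109 CPM.

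All 10 genes are protein-coding in GENCODE M21, and the positions of 9 of them, all but Aqp4, are given here in GRCm38 (mm10). Chromosome 11 carries Sox9 (chr11:112782224-112787760, plus strand), Gfap (chr11:102887336-102900912, minus) and Aldoc (chr11:78322968-78327781, plus), and chromosome 10 carries Gja1 (chr10:56377330-56402513, plus) and S100b (chr10:76253853-76261159, plus). The others are Glul (chr1:153899944-153909723, plus), Slc1a2 (chr2:102658659-102790784, plus), Aldh1l1 (chr6:90486427-90600203, plus) and Slc1a3 (chr15:8634124-8710764, minus). Without a stated strand setting, reads of Glul and of Teddm2, whose exons overlap on the opposite strand, cannot be told apart; Teddm2 had 199 reads over the 16 libraries. The last 500 bases of Glul also match the pseudogene Glns-ps1 at 95.4% over 504 aligned bases, gaps included. That pseudogene had 7 reads in all, which does not show how reads matching both places were counted.

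The promoters of 8 of the 10 genes were found in the RefSeq table for GRCm38.p6 (no entry for Sox9 and Aqp4), and the 250 bases before each start were searched on both strands for short motifs. The core ACAAT bound by SOX proteins occurred in Slc1a3 and Aldoc (27.7% of 32851 promoters hold it), and the short NFI site TTGGC in Aldoc, Glul, S100b and Slc1a2 (41.5%). The longer palindromic NFI site, TTGGC and GCCAA with 5 bases between them, was in none of the 8 (0.0365% of all), TTCNNNGAA of STAT proteins in Aldoc and Slc1a3 (7.02%), TGANTCA of AP-1 in Gja1 (6.75%), and TATAAA in Slc1a3 (12.4%). The search for TTGGC also counts copies inside the longer site. Aldoc had windows beginning at chr11:78322823, with the SOX core and TTGGC, and at chr11:78323948, with TTCNNNGAA. Some windows, such as that of Slc1a2 (chr2:102706188-102706437), lie inside the gene positions given above. A match describes letters and not a bound site. The windows of Slc1a3, with its SOX core, and of Gja1, the gene with the lowest p between the WT groups, read 5′ to 3′ as follows, with the SOX core or the AP-1 site in capitals.
Slc1a3, chr15:8710808-8711057, minus strand: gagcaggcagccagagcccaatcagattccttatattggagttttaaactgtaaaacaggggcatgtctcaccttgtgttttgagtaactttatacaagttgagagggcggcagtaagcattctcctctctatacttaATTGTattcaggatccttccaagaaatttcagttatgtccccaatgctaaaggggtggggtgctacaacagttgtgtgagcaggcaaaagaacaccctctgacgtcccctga
Gja1, chr10:56377050-56377299, plus strand: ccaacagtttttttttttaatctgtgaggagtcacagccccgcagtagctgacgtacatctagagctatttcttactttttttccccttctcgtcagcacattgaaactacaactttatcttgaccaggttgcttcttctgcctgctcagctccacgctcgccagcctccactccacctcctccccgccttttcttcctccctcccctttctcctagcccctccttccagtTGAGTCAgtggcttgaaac
In Slc1a3 the capitals, which read ATTGT on the gene's strand, lie 112 to 108 bases before the start. In Gja1 they lie 19 to 13 bases before it.

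In the PWS-IC deleted brain Sox9 fell and the other 9 astrocyte markers did not pass the test. Sox9 had 92.9, 113, 108 and 123 CPM in the PWS-IC deleted brains, against 170.3, 133, 144 and 138 CPM in their WT. Every deleted library lay below every WT library. The means were 109 ± 12.4 and 146 ± 16.6 CPM (SD, n = 4 each), a fold of 0.749 and a log2 fold change of -0.42 ± 0.0998 (SE; 95% interval -0.62 to -0.21; edgeR's quasi-likelihood F-test, adjusted p = 0.0194 by Benjamini-Hochberg). So 1 of 10 genes was called, where 4.52% of the 13636 genes tested were called in either direction and 1.55% lower. The call was lost in some fits with 1 library left out. Without PWS-IC WT replicate 1 the change was -0.33 (edgeR, adjusted p = 0.0660). It was -0.35 without deleted replicate 1 (edgeR, adjusted p = 0.0744) and -0.40 without deleted replicate 3 (adjusted p = 0.0598). Sox9 kept its call in the other 5 of 8 such fits. Within each sex (2 libraries against 2) the mean difference of log2(CPM + 0.5) was -0.56 in males and -0.29 in females.

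The endfoot and junction genes of the PWS-IC comparison were lower on average without passing the test. Aqp4 had 33.0, 41.3, 46.9 and 34.2 CPM in deleted brains, against 52.1, 50.2, 44.4 and 54.4 CPM in WT. Deleted replicate 3 reached into the WT range. The log2 fold change was -0.38 ± 0.125 (SE; 95% interval -0.64 to -0.11; edgeR, adjusted p = 0.0953). Aqp4 did pass with no filter on low counts, at -0.40 (edgeR, adjusted p = 0.0437), and with sex as a term, at -0.38 (adjusted p = 0.0444). Gja1 had 52.7, 56.8, 55.2 and 57.1 CPM in deleted brains, against 69.0, 57.7, 69.5 and 63.8 CPM in WT. These ranges did not overlap, but by a margin of under 1 CPM, and the change of -0.22 ± 0.0976 was not called (SE; edgeR, adjusted p = 0.226).

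The glutamate genes showed the same lack of calls. Slc1a3 had 403, 414, 424 and 419 CPM in PWS-IC deleted brains, against 454, 441, 439.7 and 426 CPM in WT. All deleted libraries were lower, and the change was -0.08 (95% interval -0.23 to 0.07; edgeR, adjusted p = 0.629). Slc1a2 stood at 141 ± 16.2 CPM in deleted brains and 153 ± 5.53 CPM in WT (SD, n = 4), with a log2 fold change of -0.11 (95% interval -0.30 to 0.08). Glul had 267, 278, 315 and 268 CPM in deleted brains, against 337, 348, 357 and 296 CPM in WT. Deleted replicate 3 lay above WT replicate 4, and the change was -0.24 ± 0.0859 (SE; 95% interval -0.42 to -0.06; edgeR, adjusted p = 0.120).

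Among the histological markers and metabolic enzymes, S100b and Gfap had the higher mean in PWS-IC deleted brains and neither was called. S100b stood at 22.3 ± 2.57 CPM in deleted brains and 18.1 ± 3.72 CPM in WT (SD, n = 4; log2 0.31 ± 0.161, SE; edgeR, adjusted p = 0.322). Gfap, the filament protein that rises in reactive astrocytes, had 6.50, 5.47, 9.49 and 8.45 CPM in deleted brains, against 8.71, 5.87, 7.46 and 6.28 CPM in WT. The groups overlapped fully, and the change of 0.08 had a 95% interval of -0.42 to 0.57. Aldh1l1 and Aldoc were at -0.18 and -0.08 on the log2 scale (edgeR, adjusted p = 0.542 and 0.710). Over the 10 genes, 8 lay below 0 (52.4% of all genes tested did), with a median of -0.15 against -0.01 for all genes. An unadjusted p under 0.05 was reached by 4 genes, all lower, where 8.24% of all genes were. The libraries did not overlap for 3 genes, all lower, where 5.06% of all genes did not overlap in that direction. Their summed level was 1237 to 1354 CPM in deleted brains and 1386 to 1524 CPM in WT. Deleted replicate 1 was the lowest deleted library for 7 of the 10 genes.

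**Figure D2:**
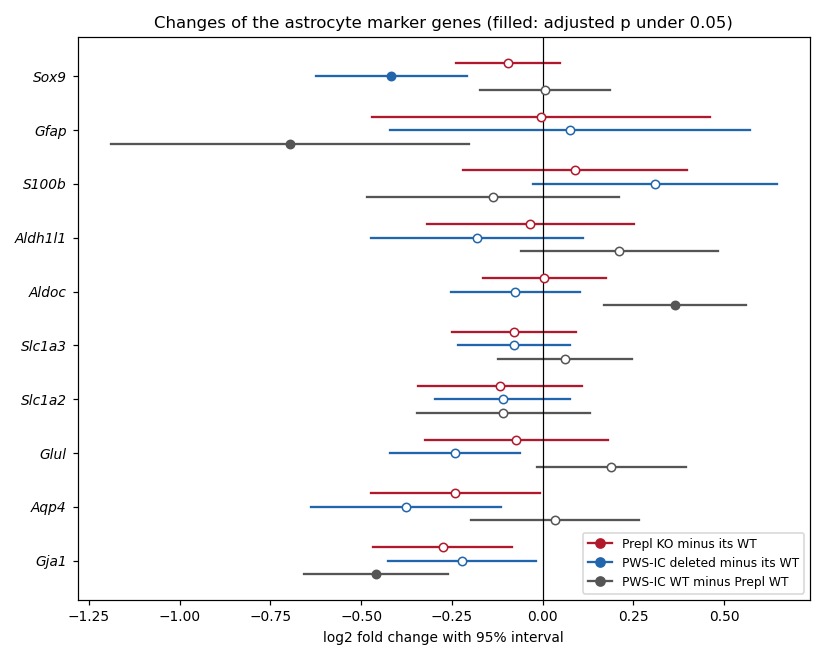
Log2 fold change (horizontal axis) with its 95% interval for each astrocyte marker gene in 3 comparisons, Prepl knockout minus its WT, PWS-IC deleted minus its WT and PWS-IC WT minus Prepl WT; filled circles passed an adjusted p of 0.05. Sox9, at -0.42, is the filled circle of the PWS-IC comparison, the Prepl comparison has none, and the WT comparison has 3: Gfap, Aldoc and Gja1.

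Markers of other cells moved in the same PWS-IC libraries as Sox9. Markers of ependyma, whose cells also make Sox9, summed to 41.8 to 43.8 CPM in deleted brains and 48.9 to 55.5 CPM in WT, without overlap, and 0 of 6 tested genes (8 listed) were called. Much of that sum was Foxj1, at a mean of 19.8 CPM in deleted brains and 24.5 CPM in WT. Tm4sf1, at 4.68 and 6.87 CPM, is also in the list of reactive astrocyte genes. Of the 6 tested ependyma genes 4 lay below 0 and 2 above. Choroid plexus markers summed to 449 to 1780 CPM in deleted brains and 1459 to 2242 CPM in WT, with 3 of 9 lower. Most of that sum was Ttr, at a mean of 738 CPM in deleted brains and 1609 CPM in WT. Markers of meningeal fibroblasts, which also make Gja1, summed to 666 to 765 CPM in deleted brains and 748 to 1444 CPM in WT, with 5 of 10 lower. Blood genes summed to 1203 to 1629 CPM in deleted brains and 1796 to 3970 CPM in WT, with 4 of 5 lower. Of all genes tested, 4.52% were called in either direction and 1.55% were called lower. Neurons had 0 of 15 called and oligodendrocyte precursors 0 of 8. Oligodendrocytes (1 of 6), microglia (1 of 9) and endothelium with mural cells (1 of 12) each had 1 lower gene. None of these lists holds a gene at 0 reads in all libraries. The part of these cells in the change of Sox9 was not tested, and the higher share of reads outside genes in the deleted libraries cannot be told apart from the deletion.

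**Figure D3:**
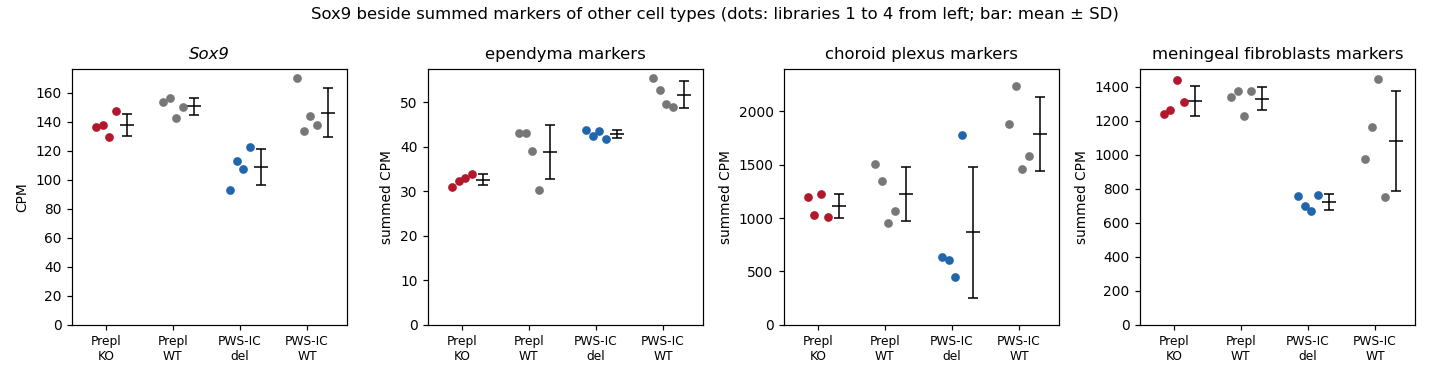
Sox9 in CPM and the summed CPM of ependyma, choroid plexus and meningeal fibroblast markers (vertical axes, from 0) in the 4 libraries of each group, with bars for the mean ± SD. Sox9 and the ependyma sum are lower in every PWS-IC deleted library than in every PWS-IC WT library, whereas 1 deleted library reaches 1780 CPM for choroid plexus markers.

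The other astrocyte lists held few calls in the PWS-IC deleted brain. Over 6 such lists 5 of 135 tested genes were called, or 3.70%, near the 4.52% of all genes. In a list of astrocyte transcription factors 1 of 18 tested genes rose: Nr2f1, an orphan nuclear receptor of forebrain patterning, had 556, 539, 474 and 519 CPM in deleted brains and 418, 401, 405 and 459 CPM in WT (log2 0.32 ± 0.0820, SE; edgeR, adjusted p = 0.0286). Of 11 filament and cytoskeletal genes 1 fell: S100a1, a calcium-binding relative of S100b, had 11.3, 13.5, 11.2 and 11.04 CPM in deleted brains and 18.8, 17.98, 18.9 and 17.1 CPM in WT (log2 -0.62 ± 0.162, SE; edgeR, adjusted p = 0.0303). For both, the groups did not overlap. Neither gene is confined to astrocytes, as neurons make Nr2f1.

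Of 55 further astrocyte-enriched genes, 1 rose and 2 fell in the PWS-IC deleted brain. Cst3, the secreted protease inhibitor cystatin C, had 310.4, 346, 343 and 335 CPM in deleted brains, against 429.7, 445, 427 and 409 CPM in WT (log2 -0.35 ± 0.0771, SE; edgeR, adjusted p = 0.0113). Tril, a Toll-like receptor interactor, had 21.9, 21.2, 22.1 and 23.1 CPM in deleted brains, against 30.9, 34.6, 28.9 and 29.3 CPM in WT (log2 -0.48 ± 0.128, SE; edgeR, adjusted p = 0.0367). Fabp5, a fatty acid-binding protein, had 287, 303, 295 and 269 CPM in deleted brains, against 226, 225, 225 and 254 CPM in WT (log2 0.32 ± 0.0816, SE; edgeR, adjusted p = 0.0283). None of these 3 genes had overlapping groups. Cst3 kept its call whichever library was left out, with an adjusted p of at most 0.0476 in edgeR. The other 4 calls were lost in some or all of the fits with 1 library left out. In these fits the log2 change ranged from -0.52 to -0.41 for Tril and from -0.70 to -0.58 for S100a1. It ranged from 0.28 to 0.38 for Nr2f1 and from 0.29 to 0.36 for Fabp5. Tril lost its call whichever of the 8 libraries was left out, with adjusted p between 0.0531 and 0.0825 in edgeR. S100a1 kept its call in 2 of the 8 fits, without WT replicate 2 and without deleted replicate 2, and lost it in the others (adjusted p up to 0.0776). Nr2f1 kept it without WT replicates 2 or 4 or deleted replicate 3 and lost it in the others (adjusted p up to 0.108), and Fabp5 kept it without WT replicates 2 or 4 or deleted replicate 4 (adjusted p up to 0.0991 in the others).

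The remaining lists held no call in the PWS-IC comparison by edgeR. Over the 6 lists 27 of 135 genes (20%) had an unadjusted p under 0.05, where 18.2% of all genes had. At this p, 3 of 17 glutamate, 2 of 16 membrane and 0 of 18 transcription factor genes were lower. So were 3 of 11 filament, 9 of 55 further and 4 of 18 reactive genes, against 8.24% of all genes. The higher ones were 1, 0, 2, 0, 3 and 0 in the same order. Changes below 0 were found for 14, 13, 11, 8, 38 and 11 genes of these lists, against 52.4% of all genes. Of 17 genes of the glutamate and glutamine cycle, 0 were called and 4 had an unadjusted p under 0.05, with the glutamine transporter Slc38a1 at -0.31 (adjusted p = 0.0804) and the neutral amino acid transporter Slc1a5 at -0.74 (adjusted p = 0.109). Of 16 membrane, junction and ion partners, 0 were called and 2 had an unadjusted p under 0.05, led by the bicarbonate cotransporter Slc4a4 at -0.28 (adjusted p = 0.105) and with the connexin Gjb6 at -0.73. The value of Gjb6 leaned on WT replicate 3, at 18.9 CPM where the other WT libraries had 5.90 to 8.20 CPM, and was -0.24 without it. Of 18 tested genes of reactive astrocytes (33 listed) 0 were called and 4 had an unadjusted p under 0.05, with the complement inhibitor Serping1 at -0.57 and the matrix gene Fbln5 at -0.92. Of these genes Slc38a1 passed in 5 of 19 other settings (edgeR, adjusted p down to 0.0154): no filter on low counts, the replicate block, sex as a term, 1 fit over 16 libraries and without WT replicate 1. Serping1 passed with sex as a term, at -0.57 (edgeR, adjusted p = 0.0470). The list medians were -0.13 for the glutamate genes, -0.15 for the membrane partners, -0.06 for the transcription factors, -0.16 for the filament genes, -0.13 for the further genes and -0.15 for the reactive genes. Bergmann glia genes (0 of 8, unadjusted 0) and regional astrocyte genes (0 of 7, unadjusted 3) had medians of 0.00 and 0.04.

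**Figure D4:**
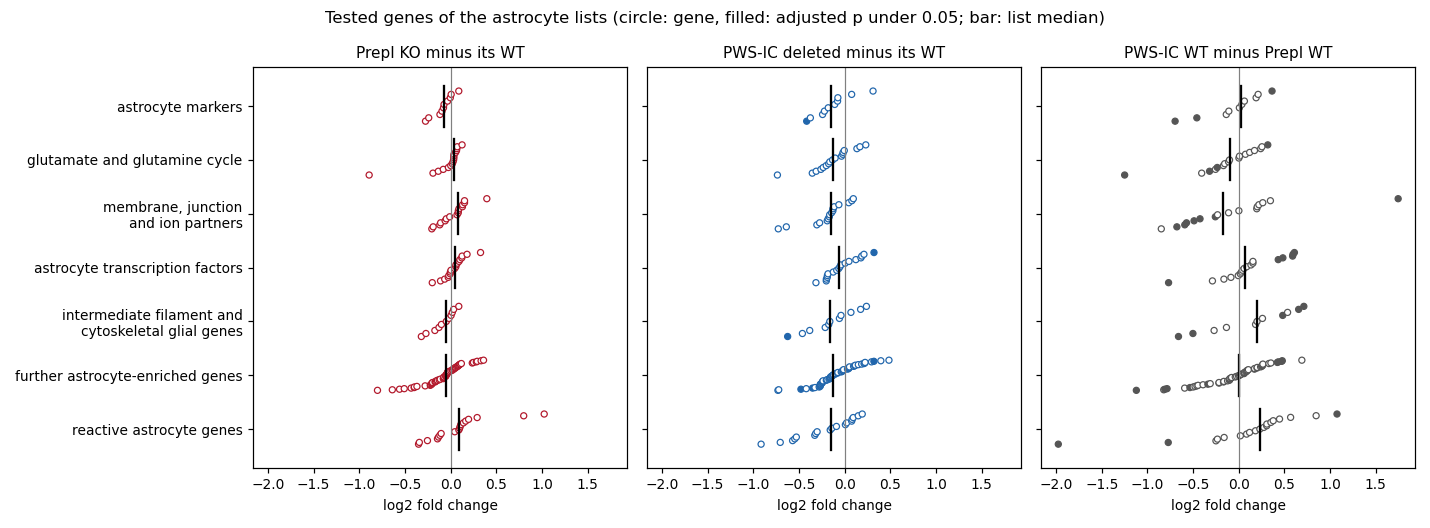
Log2 fold change (horizontal axis) of every tested gene of the astrocyte lists in 3 comparisons; circles are genes, filled where adjusted p was under 0.05, and bars are list medians. The Prepl panel has no filled circle, the PWS-IC panel has 1 among the markers and 5 in the other lists, and the WT panel has 3 among the markers and 36 in the other lists.

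In the Prepl knockout brain no astrocyte marker was called, where edgeR called 0.262% of 13722 genes; 2 of the 10 had an unadjusted p under 0.05, both lower, as had 4.51% of all genes. DESeq2 and limma voom also called 0 of the 10. Gja1 had 67.0, 68.5, 76.6 and 85.6 CPM in knockouts, against 109, 88.2, 87.4 and 85.9 CPM in WT. The groups did not overlap, but knockout replicate 4 and WT replicate 4 were almost level, and WT replicate 1 stood above all others. The change was -0.28 ± 0.0933 (SE; 95% interval -0.47 to -0.08; edgeR, adjusted p = 0.306), and 4.09% of all genes had knockouts below WT without overlap. Aqp4 had 37.2, 37.5, 47.9 and 45.1 CPM in knockouts, against 53.0, 60.5, 46.2 and 43.6 CPM in WT. Its groups overlapped, and the change was -0.24 ± 0.113 (SE; 95% interval -0.47 to -0.01; edgeR, adjusted p = 0.514). Over 19 other settings this change ranged from -0.32 to -0.03, and from -0.32 to -0.15 when 1 library was left out.

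The lineage factor Sox9 had 136, 138, 129 and 147 CPM in Prepl knockouts, against 153, 157, 143 and 149.9 CPM in WT. One knockout library lay within the WT range, and the change was -0.10 (95% interval -0.24 to 0.05; edgeR, adjusted p = 0.709). Slc1a2 had 143, 142, 164 and 163 CPM in knockouts, against 231, 163, 145 and 144 CPM in WT. WT replicate 1 was far above its group, and the change was -0.12 (95% interval -0.34 to 0.11) with it and 0.06 without it. Glul spanned 220.2 to 385 CPM in knockouts and 248 to 356 CPM in WT, with a change of -0.07 (95% interval -0.33 to 0.18). Slc1a3 averaged 403 ± 31.8 CPM in knockouts and 436 ± 59.6 CPM in WT (SD, n = 4; log2 -0.08). Gfap ranged from 8.13 to 15.04 CPM in knockouts and from 7.43 to 17.9 CPM in WT, and its change of -0.0048 had a 95% interval of -0.47 to 0.46. Aldoc, S100b and Aldh1l1 were at 0.00, 0.09 and -0.03 (edgeR, adjusted p = 0.992, 0.907 and 0.966). The median over the 10 genes was -0.08, against 0.00 for all genes, and 8 lay below 0, against 49.9% of all genes.

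The 10 genes summed to 1242 to 1517 CPM in the knockouts, against 1696 CPM in WT replicate 1 and 1266 to 1443 CPM in the other WT libraries. WT replicate 1 was the highest WT library for 7 of the 10 genes. None of the 6 other astrocyte lists held a gene called by edgeR in the Prepl comparison, and DESeq2 called 0 too. Unadjusted p under 0.05 was reached by 14 of their 135 tested genes (10.4%), where 9.43% of all genes reached it in either direction: 1 of 17 glutamate cycle genes, 1 of 16 membrane partners, 2 of 18 transcription factors, 2 of 11 filament genes, 5 of 55 further genes and 3 of 18 reactive genes. The smallest p belonged to the heparan sulfate proteoglycan Gpc5, at -0.80, and the glutamine transporter Slc38a5, at -0.89 (edgeR, adjusted p = 0.195). Slc38a5 passed with no filter on low counts and without WT replicate 1, at -0.89 and -1.10 (edgeR, adjusted p down to 0.00490). The cytokine receptor Osmr was at 1.02 and the intermediate filament genes Synm and Nes at -0.32 and -0.27. The list medians lay between -0.05 and 0.09. Bergmann glia and regional astrocyte genes had 0 of 8 and 0 of 7 called (1 at unadjusted p under 0.05 in each). Among the other cell types, 1 blood gene was lower and no neuron, oligodendrocyte, precursor, microglia, vascular, ependyma, choroid plexus or meningeal gene was called. Of all genes tested, 0.262% were called in either direction. Sex and genotype were partly confounded in this comparison, with 1 male WT library against 4 male knockouts. With sex as a term 0 of the 10 genes were called, and the change of Gfap was 0.67 in place of -0.0048.

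The test of the difference between both mutant effects called 0 of the 10 genes, against 0.778% of 14392 genes, and 1 had an unadjusted p under 0.05, against 11.7% of all genes. DESeq2 and limma voom called 0 as well. The gene was Sox9, with a PWS-IC effect minus Prepl effect of -0.32 ± 0.122 (SE; 95% interval -0.57 to -0.07; edgeR, adjusted p = 0.275). Its call in the PWS-IC brain alone therefore does not show that the models differ. The differences for Aqp4, Glul and Gja1 were -0.13, -0.17 and 0.06 (edgeR, adjusted p = 0.836, 0.773 and 0.919), and that for S100b was 0.23. The 6 other astrocyte lists held no call, with unadjusted p under 0.05 in 1 glutamate, 1 membrane, 2 transcription factor, 3 filament, 6 further and 3 reactive genes.

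Between the WT groups 3 of the 10 astrocyte markers were called, a share near that of all genes. Colony, age, batch and sex make-up cannot be told apart in this comparison. Reads outside genes also did not overlap, at 11.4% to 13.7% in PWS-IC WT and 15.98% to 19.6% in Prepl WT. Gja1 stood at 65.0 ± 5.51 CPM in PWS-IC WT and 92.6 ± 10.8 CPM in Prepl WT (SD, n = 4; log2 -0.46 ± 0.0959, SE; edgeR, adjusted p = 0.00132), with no overlap. Its lowest level was in the PWS-IC deleted brains, at 52.7 to 57.1 CPM, and Prepl knockouts, at 67.0 to 85.6 CPM, overlapped with PWS-IC WT. Aldoc was higher, at 217 ± 17.0 CPM in PWS-IC WT and 175 ± 22.2 CPM in Prepl WT (SD, n = 4; log2 0.36 ± 0.0944, SE; edgeR, adjusted p = 0.00704). Gfap was lower, at 7.08 ± 1.28 CPM in PWS-IC WT and 12.02 ± 4.42 CPM in Prepl WT (SD, n = 4; log2 -0.70 ± 0.238, SE; edgeR, adjusted p = 0.0364). The ranges of Aldoc and Gfap overlapped. Thus 3 of 10 were called, near the 23.8% of 13756 genes. Gja1 was the only member without overlap, where 24.7% of all genes had none.

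Gja1 and Aldoc kept their calls between the WT groups whichever library was left out, but Gfap kept it in 3 of 8 fits. Gfap lost it without Prepl WT replicate 1, at -0.45, without Prepl WT replicate 2, at -0.68, and without PWS-IC WT replicates 2, 3 and 4, at -0.63, -0.71 and -0.64 (edgeR, adjusted p from 0.0625 to 0.176). Sox9, at 0.01, Aqp4, at 0.03, and Slc1a3, at 0.06, were almost level between the WT groups (edgeR, adjusted p for Sox9 = 0.970). Glul was at 0.19 and Aldh1l1 at 0.21, both uncalled, and Glul was called without Prepl WT replicate 1, at 0.28 (edgeR, adjusted p = 0.0448).

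The astrocyte lists were called in both directions between the WT groups. Over the 6 lists 36 of 136 tested genes were called, 17 higher and 19 lower, or 26.5%, near the 23.8% of all genes. Of 16 membrane partners 1 was higher and 6 were lower: the potassium channel gene Kcnj16 had 12.1, 7.57, 13.1 and 11.2 CPM in PWS-IC WT, against 4.86, 3.62, 3.10 and 2.10 CPM in Prepl WT (log2 1.74), whereas Atp1b2, an ion pump subunit, was at -0.49 and dystrophin, Dmd, at -0.68. Of 18 transcription factors 5 were higher, among them Id2, Id3 and Hes5, which restrain neuronal differentiation, at 0.61, 0.59 and 0.59, and 1 was lower, Zbtb20 at -0.77. Sparcl1, a secreted synapse-promoting protein, had 651, 583, 622 and 715 CPM in PWS-IC WT, against 1390.1, 1123, 1007 and 1137 CPM in Prepl WT (log2 -0.81), within a list of 55 further genes with 6 higher and 5 lower. The reactive genes had 1 higher and 2 lower of 19, with the protease inhibitor Serpina3n at -1.98. Glutamate genes had 1 higher and 3 lower of 17, filament genes 3 higher and 2 lower of 11, and regional genes 1 higher and 1 lower of 7. Bergmann glia genes had 2 lower of 8, the glutamate receptor genes Gria1, at -0.45, and Gria4, at -0.44. The median of that list was -0.04. Other cells differed as well: blood genes summed to 1796 to 3970 CPM in PWS-IC WT and 660 to 1145 CPM in Prepl WT, and oligodendrocyte genes to 112 to 122 CPM in PWS-IC WT and 160 to 233 CPM in Prepl WT. Between the WT groups 5 of 15 neuron genes and 3 of 6 oligodendrocyte genes were lower, and 4 of 9 choroid plexus genes and 5 of 5 blood genes were higher, in PWS-IC WT. The part of these cells in the astrocyte differences was not tested.

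The 10 genes did not follow one profile over the 16 libraries. Each gene's log2 CPM was standardized, and likeness was the root mean square distance between profiles, where 0 is identity, as a description over libraries that share groups. Slc1a3 and Glul were the nearest pair of members, at 0.708, followed by Sox9 and Gja1 at 0.762, and Aldoc and Gja1 were the farthest, at 1.66, with a median of 1.23 over 45 pairs. Among 8098 genes, the nearest to Sox9 were Mkrn3, at 0.401, Zfp617 and Ndn, the first and the last being genes of the Prader-Willi region. Standardizing removes the size of a change. A gene lower in the PWS-IC deleted libraries therefore lies near the paternal genes of that region, and this nearness shows no link of Sox9 to them. The nearest to Gja1 were Thy1, at 0.259, Spon1 and Camkv. The nearest to Aldoc was Gm2a, at 0.389, to Gfap Rapgefl1, at 0.460, to Slc1a2 Sv2b, to Slc1a3 Dr1, to Aqp4 Gm16039, to Aldh1l1 Fxr1, to S100b Ramp2 and to Glul Smox. For 9 of the 10 genes, none of the 3 nearest genes was another member; the exception was Glul, with Slc1a3 as one of its 3.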

How the data were processed

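Poly(A) 3′ end libraries (Lexogen QuantSeq, total RNA) of mouse brain were analysed, per the labels' protocols. Each deposited file holds counts, whole reads per gene for 43472 symbols, made by the authors with HISAT2, HTSeq and mm10 per the submitters' processing notes; versions, annotation, strand setting: not given in the sources used here. The 5 totals that name no gene were left out of library sizes and tests; reads outside genes are the share of all tabled reads (11.4% to 20.1%).

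CPM was computed here as counts over reads in genes, with SD over 4 libraries. Changes were tested with edgeR 4.0.16 (R 4.3.3): filterByExpr (minimum count 10, minimum total 15), TMM factors, the quasi-likelihood F-test and adjustment by Benjamini-Hochberg across every tested gene, called below 0.05. "Unadjusted" p values come from the same fit, and every adjusted p in the text is of this kind. Each mutant was fitted with its own WT (8 libraries), the difference of effects over 16, and WT against WT over 8. Standard errors and 95% intervals come from the F-test. No test over a list was run.

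Alternatives were RLE and upper-quartile factors, library size alone, no filter, a filter of 1 CPM in 4 libraries, DESeq2 1.42.0, limma 3.58.1 voom, the replicate number as a block, sex as a term, 1 fit over 16 libraries, thinning to 3477624 reads and leaving out each library. For single genes of the other astrocyte lists, all but RLE and DESeq2 were chosen after seeing the data. Scripts were tested on simulated data. Members and lists were chosen with earlier results of these data known. All 10 members are named; from each other astrocyte list, up to 6 called genes with the smallest p, or up to 2 genes where none is called. The result of 1 such gene is not reported here; it stayed in all tests and counts. Replicates differed by more than sampling noise (every pair's chi-square per degree of freedom was 2.52 or more), so none was merged. Counts of this depth limit Gfap most.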

Additional observations from a re-analysis of the deposited data

Results flagged for a closer look

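In a group of 4 libraries a value was singled out where its gap to the nearest other library was larger, as a share of the group's range, than Dixon's 95% critical value for 4 samples. Of 40 groups (10 genes in 4 groups) 2 were, where chance gives about 1 in 20. Gja1, which encodes connexin 43, had 109 CPM in Prepl WT replicate 1, against 85.9 to 88.2 CPM in the other Prepl WT libraries. That library was also the highest Prepl WT library for 7 of the 10 astrocyte markers. S100b, the calcium-binding protein gene, had 16.9 CPM in Prepl knockout replicate 2, against 22.6 to 23.03 CPM in the other knockouts.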

How the results depend on the processing

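The count of called astrocyte markers stayed at 0 for the Prepl comparison and for the difference of effects under every setting run. In the PWS-IC comparison it was 1, but 2 with no filter on low counts and 2 with sex as a term (Aqp4 joined), and between 0 and 1 when a library was left out; the cause was not tested. Between the WT groups it was 3, or 2 to 3 when a library was left out. The labels do not state a pairing by replicate number. Same-numbered deviations correlated at -0.0497 to 0.0534 (Prepl) and -0.0256 to 0.145 (PWS-IC). Differently numbered ones correlated at -0.0543 to 0.0755 (Prepl) and -0.231 to 0.267 (PWS-IC). In both PWS-IC groups replicates 1 and 2 were male and 3 and 4 female, so there the number also carries sex. With a replicate block 0, 1, 0 and 3 members were called (PWS-IC, 989 of all genes in place of 616). All-gene counts moved beyond 1.5 times as follows. Prepl had 36, but 156 with no filter, 6 with sex, 18 in 1 fit over 16 libraries and 12 to 103 without 1 library. PWS-IC had 616, but 945 with no filter, 1119 with sex, 999 in 1 fit, 362 without deleted replicate 1 and 394 without WT replicate 3. The difference had 112, but 222 with no filter, 169 with DESeq2, 235 with sex and as few as 67 without 1 library.

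Uncalled log2 changes near 0 reversed. For Prepl these were Aldoc (-0.0021 upper-quartile, -0.031 library size, -0.036 thinned), Gfap (0.042 voom, 0.0018 block, 0.67 sex, 0.10 thinned), Glul (0.032 sex) and Slc1a2 (0.12 sex). For the difference they were Gfap (-0.24 sex), Slc1a2 (-0.015 no filter, -0.017 voom, -0.076 sex, -0.025 thinned) and Slc1a3 (-0.025 no filter, -0.0068 voom, -0.019 thinned). For WT they were Aqp4 (-0.016 library size) and Sox9 (-0.023 upper-quartile, -0.042 library size, -0.00074 block, -0.018 sex). Leaving out 1 library gave, for Prepl, Aldh1l1 -0.12 to 0.058, Aldoc -0.041 to 0.096, Gfap -0.17 to 0.23, Glul -0.26 to 0.025, S100b -0.020 to 0.19, Slc1a2 -0.19 to 0.062 and Slc1a3 -0.13 to 0.020. In PWS-IC it gave Gfap -0.029 to 0.20. For the difference it gave Gfap -0.16 to 0.25, Gja1 -0.030 to 0.12, Glul -0.27 to 0.0059, Slc1a2 -0.17 to 0.085 and Slc1a3 -0.096 to 0.057. For WT it gave Aqp4 -0.033 to 0.12, Slc1a2 -0.18 to 0.073 and Sox9 -0.082 to 0.041.

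Sox9 in PWS-IC stayed between -0.47 and -0.33 under all 19 settings, and Gfap between the WT groups lost its call with voom (-0.62) and with sex (-0.60). No gene named from the other lists reversed.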
